A study of Homo sapiens with 48 samples.

Results

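The subject here is the set of genes for the extracellular matrix chains that cells bind and for the receptors that bind them. Their symbols follow the collagen pattern (COL, a number, A, a number), the laminin pattern (LAMA, LAMB or LAMC with a number), the integrin pattern (ITGA or ITGB with a suffix), or are DDR1, DDR2 or FN1. By symbol alone, 86 of the 19923 protein-coding gene names counted were taken: 44 collagen chains, 12 laminin chains, 27 genes of the integrin pattern, 2 discoidin domain receptors and fibronectin. The integrin pattern also takes in ITGBL1, an integrin-like secreted protein that is no receptor subunit. The genes were measured in Kelly and NGP, 2 established neuroblastoma cell lines that both carry an amplified MYCN oncogene and are otherwise given as wild type. Cells received 8 µM STM2457, an inhibitor of the RNA methyltransferase METTL3, or the solvent DMSO for 3 or 6 days, and then 10 µg/ml actinomycin D, which stops transcription, for 0, 3 or 6 h. This makes 24 groups of 2 libraries, 12 in each line. A control at 0 h is therefore a line grown with DMSO for 3 or 6 days, and each line derives from 1 tumour. The labels do not say whether the 2 libraries of a group came from separate cultures, so every p-value measures only the spread between these libraries, which may be technical.

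Collagens are trimers that form fibrils (types I, II, III, V and XI), the sheet-like network of basement membranes (type IV), beaded microfilaments (type VI) or fibril-bound and membrane-bound molecules. Laminins are trimers of an alpha, a beta and a gamma chain and are the other network of basement membranes. Integrins are alpha-beta pairs that carry these matrix signals into the cell, and ITGB1 is the beta chain shared by the collagen, laminin and several fibronectin receptors. DDR1 and DDR2 are receptor tyrosine kinases with collagen as ligand. In neuroblastoma, an adrenergic cell state close to the sympathetic neuroblast is distinguished from a mesenchymal state rich in matrix genes. METTL3 places N6-methyladenosine on messenger RNA, a mark known to affect how fast a transcript decays.

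The libraries held 13807701 to 19774227 fragments in genes in Kelly and 11139550 to 21942238 in NGP, and the 86 genes took 0.269% to 0.425% and 0.276% to 0.385% of them. Spike-in RNA (ERCC) took 0.265% to 0.671% of the gene and spike-in fragments. Of 10 adrenergic neuroblast markers, 10 in Kelly and 9 in NGP were at 1 CPM (fragments in a gene scaled to the library's total) or more, with summed levels of 8737 to 12800 and 2240 to 4207 CPM over the libraries. Of 12 mesenchymal or fibroblast markers, 6 were at that level in each line, with summed levels of 105.1 to 281.4 CPM in Kelly and 283 to 519.1 CPM in NGP, mainly from TWIST1, PDGFRB and VIM. Schwann cell, endothelial and leukocyte markers summed to at most 17.5 CPM in any library. A lower level in a bulk library can come from fewer cells with the transcript or from less of it per cell, and these cannot be told apart here.

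Of the 86 genes, 53 were expressed in Kelly and 54 in NGP, counting a gene as expressed when its mean over the 4 DMSO libraries at 0 h (2 of each duration) was at least 1 CPM. The share of all counted genes at that level was 64.07% in Kelly and 62.7% in NGP. In Kelly these were 26 collagens, 9 laminins, 15 integrins, both discoidin receptors and FN1, and in NGP 28, 8, 15, 2 and 1. Both lines expressed 46 of them. Those that passed in Kelly alone included COL17A1, COL2A1, COL8A2, COL9A1, ITGA6 and LAMB3, and NGP alone passed for COL25A1, COL26A1, COL27A1, COL28A1, COL3A1, COL6A5, ITGA7 and LAMC3. Some lay near the cut-off, such as LAMC3 at 1.06 ± 0.889 CPM and COL6A5 at 1.29 ± 1.11 CPM in NGP (SD, n = 4). COL6A5 averaged 0.804 CPM in Kelly. COL17A1, LAMB3, COL6A5 and ITGA7 were not called as different between the lines in the joint fit described further on. In neither line did 25 reach it, among them the leukocyte integrin chains ITGAL, ITGAM, ITGAX and ITGB2, the platelet-type beta chain ITGB3 and the epithelial collagen receptor ITGA2. Of the 7 leukocyte chains, ITGAE did pass, at 10.15 CPM in Kelly and 10.8 in NGP, and it shares 6.47% of its exon bases with HASPIN. The integrin chain ITGA2B passed in both lines too, at 6.98 and 3.99 CPM. COL4A5 had 0 fragments in all 24 NGP libraries, which allows up to 3 fragments in all, and its chain partner COL4A6 was below 1 CPM in both lines. COL1A1, the alpha-1 chain of type I collagen, averaged 2.097 CPM per kilobase of exon in Kelly, where its partner in the usual heterotrimer, COL1A2, averaged 0.0205. In NGP the levels of the 2 chains were 7.14 and 0.00251 CPM per kilobase.

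Per kilobase of annotated exon, the same 5 genes led in both lines. This length covers all annotated exons of a gene and can exceed that of its transcript. The annotated length was 19271 bases for COL4A2 and 6012 for ITGB1, beside 6446 and 3735 in their canonical GENCODE transcripts. The order of genes therefore depends on the length used. In Kelly, LAMC1 stood at 31.6 CPM per kb (267 ± 22.8 CPM, SD, n = 4), DDR2 stood at 30.9 CPM per kb (344 ± 48.2 CPM, SD, n = 4) and ITGB1 stood at 30.8 CPM per kb (185 ± 18.8 CPM, SD, n = 4). LAMB1 stood at 28.7 CPM per kb (231 ± 29.4 CPM, SD, n = 4) and COL6A1 stood at 26.4 CPM per kb (140.1 ± 57.2 CPM, SD, n = 4) in that line. In NGP the order was different, and LAMB1 stood at 43.6 CPM per kb (352 ± 34.6 CPM, SD, n = 4), followed by DDR2 at 38.2 (424 ± 160.0 CPM). There ITGB1 stood at 31.9 CPM per kb (192 ± 18.3 CPM, SD, n = 4), LAMC1 stood at 23.8 CPM per kb (201 ± 13.2 CPM, SD, n = 4) and COL6A1 stood at 21.9 CPM per kb (116 ± 35.4 CPM, SD, n = 4). Neighbours in these orders overlapped over their 4 libraries, except ITGB1 and LAMC1 in NGP, where every ITGB1 library lay above every LAMC1 library. The spread for DDR2 in NGP and COL6A1 in both lines was mostly a step between 3 and 6 days. LAMB1 and LAMC1 are the beta-1 and gamma-1 chains found in most laminins. The alpha chain they would pair with was less abundant: in Kelly LAMA1 was at 12.6 and LAMA5 at 8.97 CPM per kb, and in NGP at 1.49 and 1.98. Both type IV chains of the ubiquitous network were present, COL4A2 at 15.7 and COL4A1 at 6.63 CPM per kb in Kelly, and at 20.8 and 7.48 in NGP. CPM values were scaled within each line, so those of 1 gene in the 2 lines are not on 1 scale, and differences between lines were tested only in the joint fit described further on.

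**Figure D1:**
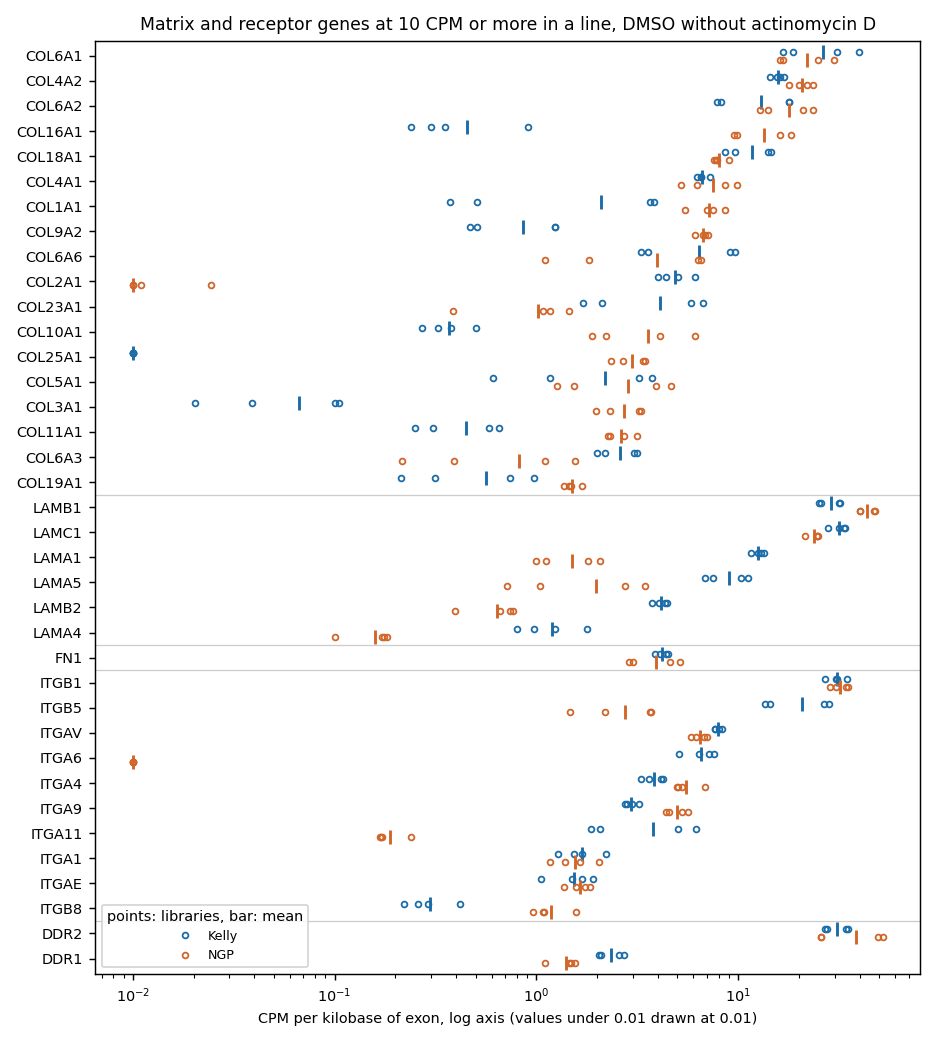
Level of the 37 genes that averaged at least 10 CPM in a line, in CPM per kilobase of exon on a log axis, with 1 point for each of the 4 DMSO libraries at 0 h of Kelly and of NGP. On this scale LAMB1, LAMC1, ITGB1, DDR2 and COL6A1 lie at the top in both lines, while ITGA6, COL2A1, COL25A1 and COL3A1 are high in 1 line and near or at 0 in the other.

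The promoters of 5 of these genes are shown because their transcripts are compared below: the divergent type IV pair, FN1, and COL6A2 and COL6A3, chains of type VI collagen. Windows run from 250 bases before to 50 bases after the start site and come from RefSeq (GRCh38.p14), which gave a window for 62 of the 86 genes. Each is written 5′ to 3′ on the strand of its gene, and capitals mark a match on either strand to any of 6 motifs. The motifs were the GC box (GGGCGG), the CCAAT box (CCAAT), the TATA box (TATAAA), the cAMP response element (TGACGTCA), the MYC-type E-box (CACGTG) and the AP-1 element (TGANTCA).
COL4A1: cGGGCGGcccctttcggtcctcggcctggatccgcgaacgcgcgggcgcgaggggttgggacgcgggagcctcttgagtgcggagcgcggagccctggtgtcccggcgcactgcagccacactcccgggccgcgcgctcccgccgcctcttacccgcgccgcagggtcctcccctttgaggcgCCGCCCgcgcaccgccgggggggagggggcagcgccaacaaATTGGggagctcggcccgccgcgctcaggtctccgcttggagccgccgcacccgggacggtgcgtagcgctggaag
COL4A2: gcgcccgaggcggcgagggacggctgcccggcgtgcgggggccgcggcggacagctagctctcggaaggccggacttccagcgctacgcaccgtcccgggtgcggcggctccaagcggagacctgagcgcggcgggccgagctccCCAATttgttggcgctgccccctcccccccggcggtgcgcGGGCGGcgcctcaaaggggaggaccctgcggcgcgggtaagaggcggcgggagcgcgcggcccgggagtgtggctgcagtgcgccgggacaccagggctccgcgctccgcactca
FN1: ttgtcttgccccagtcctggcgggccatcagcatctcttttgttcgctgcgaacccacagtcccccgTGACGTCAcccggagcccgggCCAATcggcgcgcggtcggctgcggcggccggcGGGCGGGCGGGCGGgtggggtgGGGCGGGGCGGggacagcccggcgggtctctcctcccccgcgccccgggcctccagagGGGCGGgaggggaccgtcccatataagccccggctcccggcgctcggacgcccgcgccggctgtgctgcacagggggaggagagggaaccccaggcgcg
COL6A2: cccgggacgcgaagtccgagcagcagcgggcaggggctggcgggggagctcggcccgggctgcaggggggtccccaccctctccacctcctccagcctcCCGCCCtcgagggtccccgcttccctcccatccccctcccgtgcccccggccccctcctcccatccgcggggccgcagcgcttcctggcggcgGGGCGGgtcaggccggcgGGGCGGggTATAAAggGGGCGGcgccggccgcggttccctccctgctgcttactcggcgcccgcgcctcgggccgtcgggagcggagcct
COL6A3: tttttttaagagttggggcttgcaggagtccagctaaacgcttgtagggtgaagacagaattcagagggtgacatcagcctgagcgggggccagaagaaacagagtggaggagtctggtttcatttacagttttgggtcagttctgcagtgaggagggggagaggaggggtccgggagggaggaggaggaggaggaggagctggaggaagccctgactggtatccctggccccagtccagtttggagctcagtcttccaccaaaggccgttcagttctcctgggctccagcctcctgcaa
The COL4A1 window is chr13:110307108-110307407 on the minus strand and the COL4A2 window chr13:110307034-110307333 on the plus strand. They share 226 bases, and the start sites lie 127 bases apart. The COL4A1 window has 2 GC boxes and 1 CCAAT box and that of COL4A2 1 of each. FN1 (chr2:215436019-215436318, minus strand) has 6 GC boxes, 1 CCAAT box and 1 cAMP response element. COL6A2 (chr21:46097862-46098161, plus strand) has 4 GC boxes and 1 TATA box, and COL6A3 (chr2:237414115-237414414, minus strand) has none of the 6 motifs. Some genes have more than 1 window (90 in all for the 62 genes), and for shares only the first listed of each gene was taken. A GC box occurs in 34 of the 62 genes so counted and in 44.6% of all 27305 genes of the table, a CCAAT box in 16 and 35.7%, and a TATA box in 7 and 11.95%. The cAMP response element occurs in 1 and 1.98%, the E-box in 1 and 7.435%, and the AP-1 element in 3 and 7.76%. Overlapping matches were each counted, so that the GC boxes of FN1 run into one another, and a match is a run of letters, not a measured binding site.

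Between the lines, 41 of the 85 genes tested differed in DMSO at 0 h, 20 higher and 21 lower in NGP than in Kelly, against 41.1% of all genes. Laminins leaned one way: 6 were lower and 2 higher in NGP, with a median log2 difference of -2.52 over the 12 tested. The alpha chains LAMA1, LAMA3, LAMA4 and LAMA5 were lower in NGP by log2 differences of -3.10, -2.96, -2.83 and -2.38. The beta-2 chain LAMB2 was lower by -2.67, while LAMB1 was higher at 0.65 (SE 0.055, edgeR adjusted p = 7.87e-17). Of the collagens 14 were higher and 10 lower. Among the higher ones were COL10A1 (3.19), COL27A1 (4.01) and COL28A1 (3.81). The fibril-associated COL16A1 was higher in NGP at 4.99 (SE 0.218, edgeR adjusted p = 3.18e-31) and the fibrillar COL3A1 at 5.29 (SE 0.444, edgeR adjusted p = 7.33e-17), and COL1A1 at 2.52 (SE 0.164, edgeR adjusted p = 4.86e-22). COL2A1, the cartilage collagen, averaged 32.5 ± 6.02 CPM (SD, n = 4) in Kelly and 0.0589 ± 0.0773 CPM in NGP, and its difference in the joint fit was -8.90 (SE 0.447, edgeR adjusted p = 5.14e-27). Among integrins, the collagen receptor chain ITGA11 was lower in NGP at -4.11 (SE 0.291, edgeR adjusted p = 3.08e-20), and the vitronectin receptor chain ITGB5 at -2.88 (SE 0.117, edgeR adjusted p = 6.15e-33).

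In the 4 DMSO libraries at 0 h, 3 genes with at least 100 fragments in 1 line had at most 1 in the other. ITGA6, the laminin receptor chain, had 2954 fragments in Kelly and 0 in NGP, so it was at least 887-fold higher in Kelly, taking 3 fragments over the 4 libraries as the floor of a count of 0. COL26A1 had 402 fragments in NGP and 0 in Kelly and was at least 149-fold higher in NGP. COL25A1, a membrane collagen of neurons, had 1602 fragments in NGP and 1 in Kelly, a ratio of 1778 with a 95% exact counting interval of 319 to 70260. These bounds and intervals cover counting error only.

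STM2457 changed few of these genes in Kelly after 3 days. At 0 h, 2 of 84 tested genes fell and none rose, against 1.68% of all genes called. COL18A1, a basement membrane proteoglycan whose C-terminal fragment is endostatin, was at 72.4 and 81.8 CPM in the DMSO libraries and 44.4 and 42.1 in the STM2457 libraries. Its log2 change was -0.83 (SE 0.129, edgeR adjusted p = 5.34e-07). ITGB5 was at 184 and 173 CPM in DMSO and 107 and 118 with STM2457, a change of -0.67 (SE 0.113, edgeR adjusted p = 4.83e-06). For both genes the 2 treated libraries lay below both controls. With libraries scaled to the spike-ins in place of the typical gene, the median of all genes moved by 0.38, 14 genes rose and 1 fell, and the change of ITGB5 was -0.27 and no longer called.

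After 6 days in Kelly, 2 genes rose and 6 fell, against 3.97% of all genes called. The median log2 change over the 84 genes was -0.23. COL18A1 was at 119 and 124 CPM in DMSO and 62.9 and 55.8 with STM2457, -1.03 (SE 0.127, edgeR adjusted p = 2.26e-11) on the log2 scale. Type VI collagen fell too: COL6A1 went from 210.1 and 163 CPM to 118 and 116, -0.68 (SE 0.109, edgeR adjusted p = 5.52e-07). COL6A3 went from 58.9 and 61.4 to 38.8 and 37.6 CPM, -0.66 (SE 0.175, edgeR adjusted p = 0.00944). The groups of these 3 genes did not overlap. COL6A2, the remaining chain of the trimer, changed by -0.39 (SE 0.147, edgeR adjusted p = 0.147) and was not called. A pair of laminin alpha chains fell, LAMA5 from 160.3 and 147 to 109.9 and 115 CPM, -0.45 (SE 0.108, edgeR adjusted p = 0.00212), and LAMA4 from 21.2 and 14.8 to 6.42 and 5.58 CPM, -1.58 (SE 0.427, edgeR adjusted p = 0.0106). COL23A1, a membrane collagen, changed by -1.13 (SE 0.351, edgeR adjusted p = 0.0407). FN1, the fibronectin gene, rose from 75.5 and 66.5 to 108 and 106 CPM, 0.59 (SE 0.128, edgeR adjusted p = 5.09e-04). COL4A2 rose by 0.29 (SE 0.0761, edgeR adjusted p = 0.00887), and its partner COL4A1 changed by 0.30 (SE 0.118, edgeR adjusted p = 0.18) and was not called.

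COL18A1 and COL6A1 stayed called whichever of the 4 libraries was left out. COL23A1 was lost without any of them, with a change between -1.26 and -1.05. LAMA4 and COL4A2 were each lost without DMSO replicate 1 or either STM2457 library (changes between -1.84 and -1.32 and between 0.21 and 0.33), and COL6A3 without DMSO replicate 2 or either STM2457 library (between -0.71 and -0.65). LAMA5 was lost without DMSO replicate 1 (between -0.53 and -0.41), and FN1 without DMSO replicate 2 (between 0.48 and 0.66). Under spike-in scaling the median of all genes moved by -0.21, no gene rose and 11 fell. COL4A2 then changed by 0.03 and FN1 by 0.34, neither called. COL18A1 shares 18.5% of its exon bases with SLC19A1 on the other strand, and the headers name no strand option, so reads of the 2 genes may be mixed. SLC19A1 was at 33.8 and 29.1 CPM in DMSO and 34.3 and 36.4 with STM2457 at 6 days.

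In NGP after 3 days, 5 genes rose and 4 fell, against 3.7% of all genes called. COL16A1, a fibril-associated collagen, fell from 88 and 91.1 to 51 and 47.1 CPM, -0.87 (SE 0.112, edgeR adjusted p = 2.39e-08). LAMA5 fell from 14.8 and 10.2 to 6.92 and 5.91 CPM, -0.96 (SE 0.246, edgeR adjusted p = 0.00933). COL1A1 fell from 73.3 and 53.6 to 40.5 and 44.9 CPM, -0.57 (SE 0.133, edgeR adjusted p = 0.00312). ITGA9 fell from 36.4 and 37.5 to 24.1 and 22.9 CPM, -0.65 (SE 0.187, edgeR adjusted p = 0.0272). In each of these the treated libraries lay below the controls. ITGA1, the alpha chain of a collagen receptor, rose from 25.6 and 37.9 to 60.1 and 60.6 CPM, 0.92 (SE 0.179, edgeR adjusted p = 2.16e-04). DDR2 rose from 286 and 285 to 359.7 and 358 CPM, 0.33 (SE 0.0673, edgeR adjusted p = 5.12e-04). The type VI chain COL6A6 rose by 0.72 (SE 0.172, edgeR adjusted p = 0.00457), the fibrillar COL11A1 by 0.72 (SE 0.21, edgeR adjusted p = 0.0326) and FN1 by 0.39 (SE 0.117, edgeR adjusted p = 0.0413). COL16A1, DDR2 and COL6A6 kept their call without any 1 library, and FN1, COL11A1 and ITGA9 lost it without each of the 4 (between 0.31 and 0.47, 0.59 and 0.86 and -0.69 and -0.61). LAMA5 was lost without DMSO replicate 1 or STM2457 replicate 2 (between -1.21 and -0.67), COL1A1 without replicate 1 of either group (between -0.78 and -0.33) and ITGA1 without DMSO replicate 1 (between 0.67 and 1.24). Under spike-in scaling 8 rose and 3 fell, with the median of all genes at 0.10, and ITGA9, at -0.55, was not called.

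After 6 days in NGP, 5 genes rose and 7 fell, against 7.99% of all genes called. DDR2 went from 578 and 546 CPM to 272 and 263, -1.07 (SE 0.0675, edgeR adjusted p = 7.61e-23), where it had been higher with STM2457 at 3 days. LAMA5 fell from 39.1 and 49.1 to 18.1 and 15.9 CPM, -1.38 (SE 0.226, edgeR adjusted p = 2.62e-06). COL6A3 fell from 21.5 and 30.4 to 7.61 and 12.8 CPM, -1.35 (SE 0.31, edgeR adjusted p = 0.00121). COL18A1 fell from 65.4 and 75.8 to 44.4 and 39.8 CPM, -0.74 (SE 0.13, edgeR adjusted p = 1.03e-05). SLC19A1, which overlaps COL18A1, was at 54.3 and 51.0 CPM in DMSO and 46.8 and 50.8 with STM2457. COL1A1 fell from 68.7 and 84.9 to 50.4 and 46.3 CPM, -0.67 (SE 0.13, edgeR adjusted p = 1.01e-04). No group pair of these 5 overlapped. COL6A1 and COL16A1 fell by less, -0.36 (SE 0.0963, edgeR adjusted p = 0.00713) and -0.34 (SE 0.107, edgeR adjusted p = 0.027). FN1 rose from 52.1 and 49.3 to 70.3 and 72.4 CPM, 0.49 (SE 0.119, edgeR adjusted p = 0.00236), and COL4A1 from 76.2 and 91.7 to 108 and 115 CPM, 0.41 (SE 0.108, edgeR adjusted p = 0.00612). Their chain partners COL4A2 and, for COL6A1 and COL6A3, COL6A2 changed by 0.15 (SE 0.0649, edgeR adjusted p = 0.194) and -0.10 (SE 0.106, edgeR adjusted p = 0.732), neither called. ITGA1 and ITGA4, both partners of ITGB1, rose by 0.56 (SE 0.18, edgeR adjusted p = 0.0337) and 0.43 (SE 0.141, edgeR adjusted p = 0.0457). LAMA3 rose from 21 and 16 fragments to 126 and 101, 2.66 (SE 0.868, edgeR adjusted p = 0.0396).

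DDR2, LAMA5, COL18A1, COL1A1 and FN1 stayed called without any 1 of the 4 NGP libraries. ITGA4 and LAMA3 were lost without each of them (between 0.40 and 0.45 and 2.58 and 2.74). ITGA1 was lost without DMSO replicate 2 or either STM2457 library (between 0.34 and 0.83). COL6A3 and COL6A1 were lost without DMSO replicate 2 or STM2457 replicate 1 (between -1.77 and -1.02 and -0.48 and -0.23). COL16A1 was lost without replicate 2 of either group (between -0.53 and -0.18) and COL4A1 without DMSO replicate 1 or STM2457 replicate 2 (between 0.28 and 0.55). Under spike-in scaling 2 rose and 7 fell, with the median of all genes at -0.02, and ITGA1 (0.52), ITGA4 (0.38) and LAMA3 (2.62) were not called. ITGA4 shares 14.8% of its exon bases with CERKL.

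**Figure D2:**
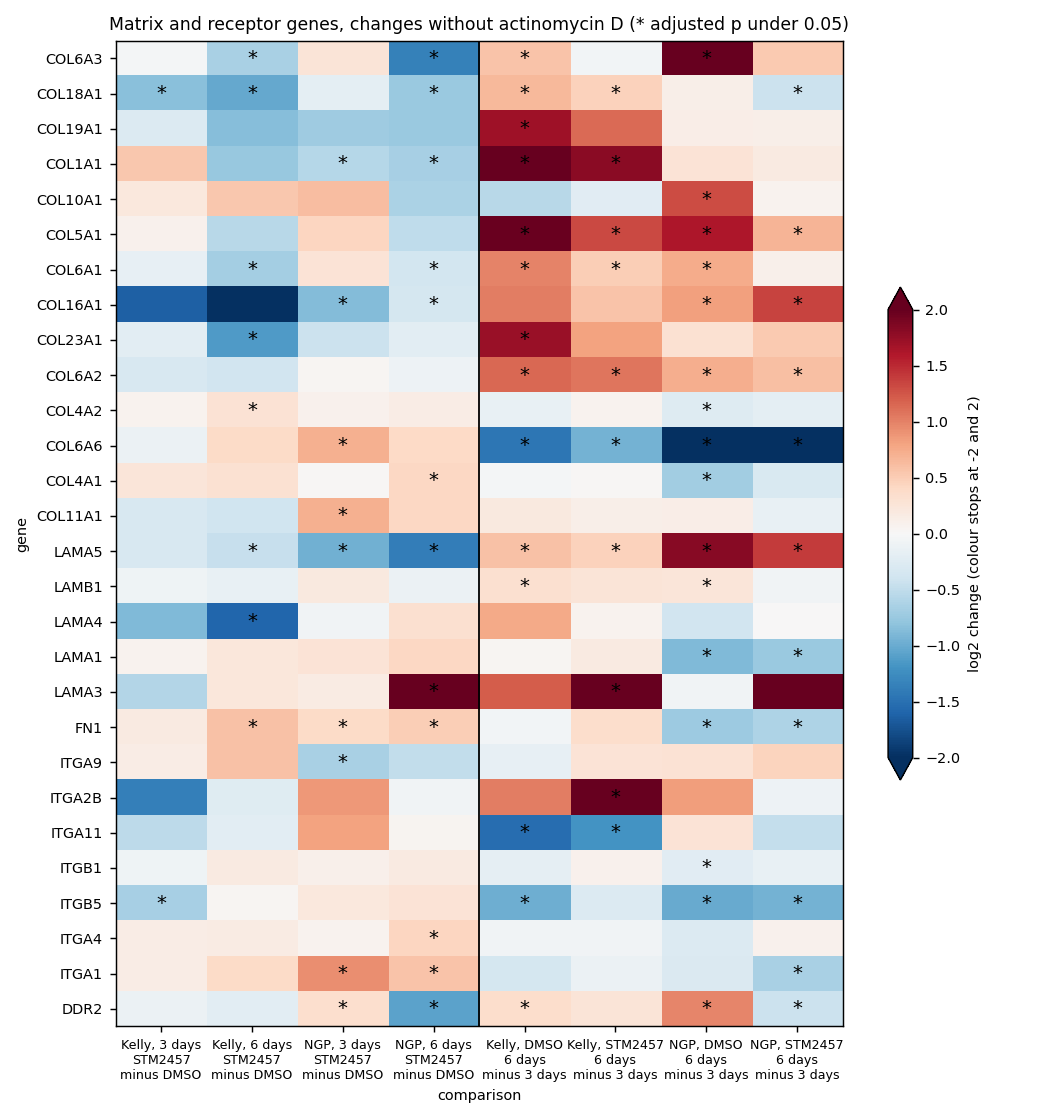
Log2 changes at 0 h of the 28 genes called in at least 1 of 8 comparisons (columns: STM2457 against DMSO and 6 against 3 days, in each line), on a colour scale with red higher and blue lower; an asterisk marks an edgeR adjusted p below 0.05. COL18A1, COL6A1, COL6A3 and LAMA5 are lower and FN1 is higher with STM2457 at 6 days in both lines, and COL6A6 and ITGB5 are lower at 6 than at 3 days of DMSO in both.

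Called in both lines at 6 days were COL18A1, COL6A1, COL6A3 and LAMA5, all lower with STM2457, and FN1, higher. That is 5 of the 8 genes called in Kelly and 5 of the 12 called in NGP, from libraries with no control in common. Of all genes called at 6 days, 45.6% of those in Kelly and 25.9% of those in NGP were called in the other line too. At 3 days none of the 2 genes called in Kelly and 9 in NGP was shared, against 43.3% and 22.5% of all genes called. In the joint fit of 48 libraries the STM2457 effect at 6 days differed between lines for 5 genes, 2 with a higher and 3 with a lower value in NGP, against 1.75% of all genes. LAMA5 fell further in NGP, by a difference of -0.90 (SE 0.198, edgeR adjusted p = 0.00306), and DDR2 by -0.85 (SE 0.0996, edgeR adjusted p = 3.40e-09). In Kelly, DDR2 was at 389.5 and 381 CPM in DMSO and 343 and 325 with STM2457, -0.21 (SE 0.0798, edgeR adjusted p = 0.165), which is not a call. LAMA5 and DDR2 kept this difference without any 1 of the 8 libraries, and ITGA9 (-1.05 (SE 0.288, edgeR adjusted p = 0.0339), between -1.12 and -0.98) lost it without each. COL16A1 had a difference of 1.72 (SE 0.478, edgeR adjusted p = 0.0379), which rests on 59 and 128 Kelly fragments in DMSO and 16 and 29 with STM2457. It was lost without Kelly DMSO replicate 2 or STM2457 replicate 1 (between 0.77 and 2.37). ITGA6 had 0 and 0 fragments in NGP with DMSO and 4 and 11 with STM2457 (difference 5.78 (SE 1.56, edgeR adjusted p = 0.0312)), and was lost without either NGP DMSO library or STM2457 replicate 2 (between 4.80 and 6.41). Spike-in scaling gave 4 higher and 2 lower, and did not call ITGA9 (-0.86).

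At 3 days the effect differed between lines for DDR2 alone, against 0.161% of all genes. The difference was 0.44 (SE 0.1, edgeR adjusted p = 0.0336), and it lost its call without each of the 8 libraries (between 0.42 and 0.45). Spike-in scaling gave 0 higher and 3 lower, and a DDR2 difference of 0.14 that was not called.

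**Figure D3:**
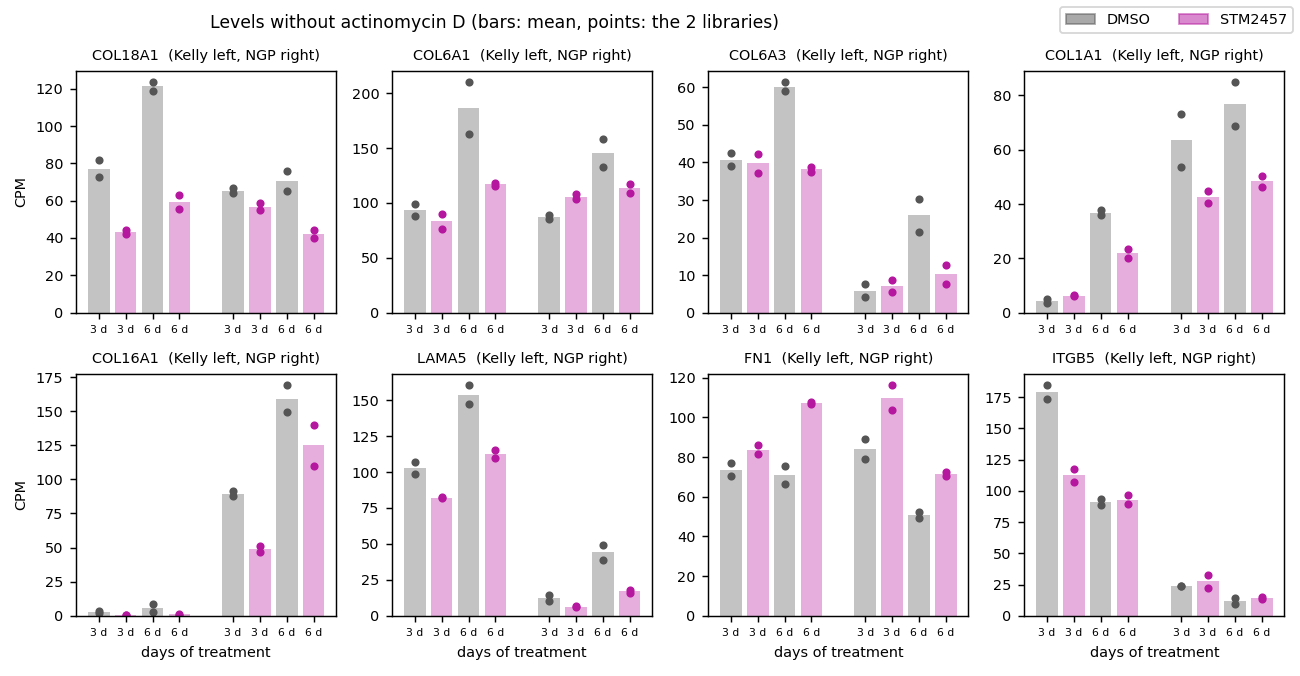
CPM of COL18A1, COL6A1, COL6A3, COL1A1, COL16A1, LAMA5, FN1 and ITGB5 in every library at 0 h, by line, treatment and duration, with a bar at the mean of the 2 libraries. COL18A1 lies lower with STM2457 than with DMSO in both lines at 6 days, and FN1 lies higher.

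Whether the STM2457 effect grew between 3 and 6 days was tested as an interaction within each line. In Kelly 1 gene was called, against 0.788% of all genes: ITGB5, whose effect was higher at 6 days by 0.70 (SE 0.16, edgeR adjusted p = 0.00541). It was at 93.5 and 88.5 CPM in DMSO and 89.1 and 97 with STM2457 at 6 days, so the treated libraries no longer lay below. The call was lost without DMSO replicate 1 or STM2457 replicate 1 of 3 days, or replicate 2 of either at 6 days (between 0.61 and 0.74). Under spike-in scaling the median of all genes moved by -0.62, none was higher and 18 lower, and the ITGB5 value was 0.05. In NGP 1 gene was higher and 4 lower, against 2.8% of all genes. DDR2 had the value -1.40 (SE 0.0951, edgeR adjusted p = 4.08e-20) and COL6A1 -0.64 (SE 0.138, edgeR adjusted p = 0.00107), both called without any 1 of the 8 libraries. COL6A3 had -1.61 (SE 0.45, edgeR adjusted p = 0.0268), COL5A1 -0.93 (SE 0.273, edgeR adjusted p = 0.0394) and COL16A1 0.53 (SE 0.154, edgeR adjusted p = 0.0403). These 3 were each lost without 4 of the 8 libraries. COL6A3 was lost without DMSO replicate 1 or STM2457 replicate 2 of 3 days and DMSO replicate 2 or STM2457 replicate 1 of 6 days (between -2.10 and -1.23). COL5A1 was lost without replicate 1 of either treatment at 3 days and the same 6-day libraries (between -1.15 and -0.74). COL16A1 was lost without replicate 2 of either treatment at 3 days and replicate 1 of either at 6 days (between 0.34 and 0.69). Spike-in scaling gave 0 higher and 6 lower, with COL16A1 at 0.38, and library size alone 0 higher and 4 lower.

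Between 3 and 6 days of DMSO, more genes were called than between STM2457 and DMSO at 6 days: 14 against 8 in Kelly and 16 against 12 in NGP. In Kelly 11 rose and 3 fell, against 8.52% of all genes called. Under spike-in scaling 22 rose and 3 fell, with the median of all genes at 0.35. These values and the 6-day STM2457 changes share the DMSO libraries of 6 days, and so are not independent. The summed level of the 12 mesenchymal or fibroblast markers, 6 of them at 1 CPM or more, was also read at 0 h. It was higher at 6 than at 3 days in Kelly with either treatment, and lower in NGP with DMSO. In NGP with STM2457 the 2 durations overlapped. The sums were not tested. In Kelly TWIST1 (104 CPM) and PDGFRB (61 CPM) led the sum over the DMSO libraries at 0 h. Single markers were not tested. At 0 h the sum was 134.5 to 144.5 CPM at 3 days and 265.5 to 281.4 CPM at 6 days of DMSO in Kelly. With STM2457 it was 133 to 148.7 and 216.9 to 220.7 CPM. In NGP it was 406.6 to 455.6 CPM at 3 days and 333.3 to 338 CPM at 6 days of DMSO, and 489.7 to 519.1 and 489.9 to 499.4 CPM with STM2457. No marker of the list was at 0 in a whole line, and its part in the changes of either treatment or duration was not tested. COL1A1 rose from 3.65 and 4.96 CPM to 37.7 and 36, 3.10 (SE 0.336, edgeR adjusted p = 1.24e-14). COL5A1, a fibrillar chain that nucleates type I fibrils, rose from 6.8 and 13 to 36 and 41.5 CPM, 1.98 (SE 0.278, edgeR adjusted p = 2.69e-09). COL6A1 rose from 88.1 and 98.9 to 210.1 and 163 CPM, 1.00 (SE 0.11, edgeR adjusted p = 3.50e-14), and COL6A2 from 41.9 and 44 to 95 and 95.4, 1.15 (SE 0.15, edgeR adjusted p = 1.38e-10). All 4 genes were higher in both 6-day libraries than in either 3-day library. COL23A1 rose by 1.72 (SE 0.36, edgeR adjusted p = 1.27e-04), COL18A1 by 0.65 (SE 0.126, edgeR adjusted p = 2.18e-05) and LAMA5 by 0.59 (SE 0.108, edgeR adjusted p = 8.76e-06). COL19A1 had 1.70 (SE 0.538, edgeR adjusted p = 0.0257), lost without each of the 4 libraries (between 1.47 and 2.02). ITGA11 fell from 67.1 and 54.8 to 22.4 and 20.2 CPM, -1.52 (SE 0.203, edgeR adjusted p = 3.98e-10). COL6A6 fell from 88 and 93.9 to 34.6 and 32.1 CPM, -1.44 (SE 0.148, edgeR adjusted p = 4.76e-16). ITGB5 fell from 184 and 173 to 93.5 and 88.5 CPM, -0.97 (SE 0.113, edgeR adjusted p = 6.07e-13). COL6A3 changed by 0.56 and was lost without each library (between 0.52 and 0.64), and LAMB1 by 0.32, lost without DMSO replicate 2 of 3 days or replicate 1 of 6 days (between 0.31 and 0.35).

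In NGP with DMSO, 9 genes rose and 7 fell, against 12.1% of all genes called, and under spike-in scaling 8 rose and 10 fell with the median of all genes at -0.15. COL6A3 rose from 4.21 and 7.58 to 21.5 and 30.4 CPM, 2.13 (SE 0.325, edgeR adjusted p = 2.29e-07). LAMA5 rose from 14.8 and 10.2 to 39.1 and 49.1 CPM, 1.82 (SE 0.232, edgeR adjusted p = 1.51e-09). COL5A1 rose by 1.61 (SE 0.197, edgeR adjusted p = 3.27e-10), COL16A1 by 0.83 (SE 0.108, edgeR adjusted p = 3.42e-09) and COL6A1 by 0.74 (SE 0.0979, edgeR adjusted p = 4.34e-09). DDR2 rose from 286 and 285 to 578 and 546 CPM, 0.98 (SE 0.0675, edgeR adjusted p = 9.25e-21); both 6-day libraries lay above both 3-day libraries. COL10A1 rose by 1.31 (SE 0.366, edgeR adjusted p = 0.00734), lost without DMSO replicate 1 of 3 days or replicate 2 of 6 days (between 1.00 and 1.57). COL6A6 fell from 61.3 and 63.4 to 17.7 and 10.7 CPM, -2.12 (SE 0.188, edgeR adjusted p = 1.17e-15). ITGB5 fell by -1.01 (SE 0.255, edgeR adjusted p = 0.00233), lost without DMSO replicate 1 of 6 days (between -1.32 and -0.76). LAMA1 fell by -0.88 (SE 0.219, edgeR adjusted p = 0.0022), FN1 by -0.73 (SE 0.12, edgeR adjusted p = 1.56e-06) and COL4A1 by -0.69 (SE 0.108, edgeR adjusted p = 4.83e-07). COL4A2, transcribed away from COL4A1 in the promoter shown above, fell by -0.26 (SE 0.0651, edgeR adjusted p = 0.00222), lost without DMSO replicate 2 of 3 days or replicate 1 of 6 days (between -0.35 and -0.18).

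In both lines the DMSO calls shared 9 genes, of 14 in Kelly and 16 in NGP, and all 9 had the same direction. Of all genes called, 43.3% of those in Kelly and 34.9% of those in NGP were shared, 567 of 618 in the same direction. COL6A1, COL6A2, COL6A3, COL5A1, LAMA5, LAMB1 and DDR2 were higher at 6 days, and COL6A6 and ITGB5 lower. LAMB1 in NGP was lost without each of the 4 libraries (between 0.24 and 0.25), and with spike-in scaling it changed by 0.074 and was not called. Under STM2457 in Kelly 8 genes rose and 2 fell between the durations, against 2.39% of all genes. COL1A1 rose from 5.99 and 6.54 to 23.5 and 20.2 CPM, 1.80 (SE 0.321, edgeR adjusted p = 1.49e-05), COL6A2 by 1.08 (SE 0.152, edgeR adjusted p = 1.39e-08) and COL5A1 by 1.32 (SE 0.275, edgeR adjusted p = 4.58e-04). COL5A1 and COL6A1 (0.49 (SE 0.11, edgeR adjusted p = 0.00171)) were lost without STM2457 replicate 2 of 3 days (between 1.02 and 1.66 and 0.36 and 0.60). LAMA3 had 2.02 (SE 0.471, edgeR adjusted p = 0.00276), lost without replicate 2 of either duration (between 1.79 and 2.19), and ITGA2B 2.14 (SE 0.514, edgeR adjusted p = 0.0043), lost without either 3-day library or replicate 2 of 6 days (between 1.90 and 2.38). LAMA5 (0.45 (SE 0.109, edgeR adjusted p = 0.00436)) was lost without the same 3 (between 0.40 and 0.48), and COL18A1 (0.46 (SE 0.129, edgeR adjusted p = 0.0266)) without either 3-day library or replicate 1 of 6 days (between 0.36 and 0.53). ITGA11 fell by -1.20 (SE 0.204, edgeR adjusted p = 5.14e-06) and COL6A6 by -0.95 (SE 0.146, edgeR adjusted p = 2.58e-07). With spike-in scaling 5 rose and 3 fell, with the median of all genes at -0.24, and COL18A1 (0.18), COL6A1 (0.22) and LAMA5 (0.18) were not called.

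Under STM2457 in NGP, 4 genes rose and 7 fell between 3 and 6 days, against 5.48% of all genes. COL6A6 fell from 106 and 98.9 to 19.5 and 18.4 CPM, -2.44 (SE 0.185, edgeR adjusted p = 3.70e-18). DDR2, which rose in DMSO, fell from 359.7 and 358 to 272 and 263 CPM, -0.42 (SE 0.0672, edgeR adjusted p = 1.50e-06). LAMA5 rose by 1.40 (SE 0.242, edgeR adjusted p = 1.05e-05), COL16A1 by 1.35 (SE 0.111, edgeR adjusted p = 1.73e-16) and COL6A2 by 0.59 (SE 0.107, edgeR adjusted p = 2.92e-05), and FN1 fell by -0.62 (SE 0.118, edgeR adjusted p = 6.43e-05). COL5A1 (0.68 (SE 0.191, edgeR adjusted p = 0.0154)), LAMA1 (-0.74 (SE 0.215, edgeR adjusted p = 0.0211)), ITGB5 (-0.95 (SE 0.251, edgeR adjusted p = 0.00892)) and ITGA1 (-0.65 (SE 0.176, edgeR adjusted p = 0.0117)) were each lost without replicate 2 of either duration, with ranges of 0.46 and 0.87, -0.88 and -0.60, -1.19 and -0.66 and -0.69 and -0.61. With spike-in scaling 2 rose and 14 fell, with the median of all genes at -0.30, and COL5A1 (0.36) and COL6A2 (0.28) were not called. COL18A1, which rose in Kelly, fell from 58.6 and 55 to 44.4 and 39.8 CPM, -0.43 (SE 0.13, edgeR adjusted p = 0.0303), lost without either 3-day library or replicate 2 of 6 days (between -0.51 and -0.36). With STM2457 the duration calls of the lines shared 5 genes, of 10 in Kelly and 11 in NGP, and COL5A1, COL6A2, COL6A6 and LAMA5 had the same direction while COL18A1 had the opposite one. Of all genes called, 35.9% and 17.9% were shared.

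After actinomycin D the transcripts of these genes were mostly a larger share of the library than before. The values are relative to the typical gene, whose change is set near 0. A rise therefore means only that a transcript gained relative to most others. Whether it was lost more slowly or was still made was not tested. In DMSO over 6 h, 19 genes rose and 1 fell in Kelly at 3 days, against 30.1% of all genes, and 17 rose at 6 days, against 26.5%. In NGP 19 rose and 1 fell at 3 days, against 37.4%, and 21 rose and 5 fell at 6 days, against 36.7%. The median log2 change over the tested genes was 0.49, 0.55, 0.54 and 0.49, beside 0.00, 0.05, -0.01 and -0.05 over all genes. COL18A1 changed by 0.72 (SE 0.126, edgeR adjusted p = 5.62e-07) at 3 days and 1.07 (SE 0.124, edgeR adjusted p = 8.42e-14) at 6 days in Kelly and in NGP by 0.82 (SE 0.128, edgeR adjusted p = 1.04e-07) and 1.38 (SE 0.127, edgeR adjusted p = 1.43e-15), and with spike-in scaling it was 0.28 and -0.20 in Kelly and 0.023 and 0.32 in NGP, of which the last was called as higher. ITGB1 changed by 0.74 (SE 0.0922, edgeR adjusted p = 1.73e-12) in Kelly at 3 days, where spike-in scaling gave 0.31, still called. In NGP at 3 days it changed by 0.74 (SE 0.08, edgeR adjusted p = 1.07e-12), where spike-in scaling gave -0.062. COL6A1 changed by 0.59 (SE 0.108, edgeR adjusted p = 2.13e-06) in Kelly at 6 days, where spike-in scaling gave -0.69, and by 1.09 (SE 0.0958, edgeR adjusted p = 1.55e-16) in NGP at 6 days, where it gave 0.040 and no call.

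Scaled to the spike-ins, the median of all genes moved by -0.34 (Kelly, 3 days), -1.18 (Kelly, 6 days), -0.81 (NGP, 3 days) and -1.10 (NGP, 6 days). The genes that rose and fell were then 2 and 2 in Kelly at 3 days, 1 and 30 at 6 days, 1 and 10 in NGP at 3 days and 3 and 21 at 6 days. Of the 20, 17, 20 and 26 genes called on the typical-gene scale, 5, 16, 15 and 14 took the other sign on the spike-in scale. With library size alone they were 8 and 2 in Kelly at 3 days. Of the genes at 10 CPM or more, 29 in Kelly and 31 in NGP, the median amount left at 6 h in DMSO was 141.4% of 0 h in Kelly at 3 days and 142.2% at 6 days, and 146.1% and 145.5% in NGP. On the spike-in scale it was 104.5%, 58.52%, 83.84% and 70.16%. With STM2457 the medians on the typical-gene scale were 134.4%, 136.6%, 130.8% and 131.9%, and on the spike-in scale 74.9%, 91.7%, 83.45% and 85.5%. The spike-in scale gives the lower value for every one of these groups, and its order between groups is not the order of the other scale. The labels do not say when the spike-ins were added.

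**Figure D4:**
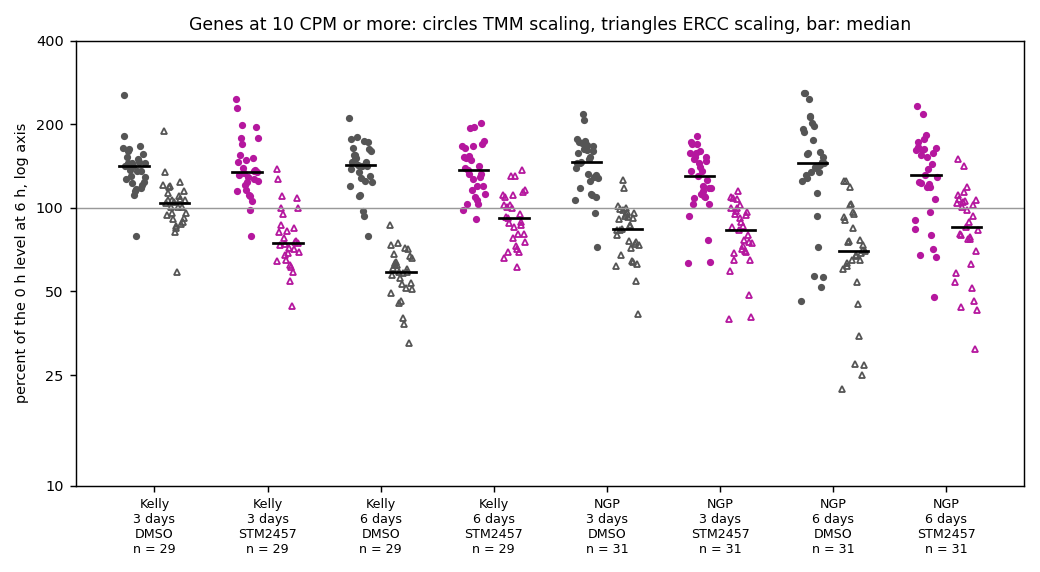
Level at 6 h of actinomycin D as a percentage of that at 0 h for the genes at 10 CPM or more (29 in Kelly, 31 in NGP), by line, duration and treatment, on a log axis; circles are scaled to the typical gene and triangles to the spike-ins. Circles have medians of 130.8% to 146.1% and triangles of 58.52% to 104.5%.

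Not every gene rose. The change was positive for 63 and 64 of 84 tested genes in Kelly at 3 and 6 days, and for 54 and 46 of 71 in NGP. Among all genes called, 2420 rose and 2618 fell in Kelly at 3 days, and 2220 and 2228 at 6 days. In NGP these numbers were 2781 and 2695 at 3 days and 2641 and 2739 at 6 days. LAMB1 rose with the other chains in Kelly, by 0.31 (SE 0.0887, edgeR adjusted p = 0.00295) at 3 days and 0.38 (SE 0.0881, edgeR adjusted p = 2.28e-04) at 6 days, though with spike-in scaling it was -0.13 and -0.90. In NGP it fell relative to the typical gene, by -0.47 (SE 0.076, edgeR adjusted p = 3.45e-07) at 3 days and -0.83 (SE 0.0759, edgeR adjusted p = 1.21e-15) at 6 days. In NGP at 6 days it was at 383 and 382 CPM at 0 h, 346 and 356 at 3 h and 208 and 223 at 6 h. In Kelly at 6 days it was at 259 and 254 CPM at 0 h, 329 and 325 at 3 h and 335 and 332 at 6 h. The libraries of 6 h lay below those of 0 h in NGP and above them in Kelly. LAMC1, its gamma partner, rose in NGP as well, by 0.36 (SE 0.082, edgeR adjusted p = 2.07e-04) and 0.54 (SE 0.0817, edgeR adjusted p = 5.03e-08), with 73.5% and 70.2% left on the spike-in scale (changes of -0.44 and -0.51). The line difference in these changes was not tested. DDR2 rose by 0.41 (SE 0.0673, edgeR adjusted p = 4.34e-07) in NGP at 3 days, with 76.2% left on the spike-in scale (a change of -0.39), and fell by -0.81 (SE 0.067, edgeR adjusted p = 8.70e-18) at 6 days.

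ITGB8, the beta chain that activates latent TGF-beta, fell in NGP at 6 days from 16.5 and 23.7 to 10.4 and 10.5 CPM, -0.94 (SE 0.307, edgeR adjusted p = 0.0101), lost without replicate 2 of 0 h or replicate 1 of 6 h (between -1.18 and -0.66). Both libraries of 6 h lay below those of 0 h. In Kelly at 3 days it fell from 54 and 57 to 15 and 2 fragments, -2.56 (SE 0.895, edgeR adjusted p = 0.0181), lost without replicate 2 of either time (between -4.62 and -1.74). ITGA11 fell from 34 and 41 to 5 and 2 fragments in NGP at 6 days, -3.45 (SE 1.3, edgeR adjusted p = 0.0289), lost without replicate 2 of 0 h or either library of 6 h (between -3.87 and -3.17). COL7A1, the anchoring fibril collagen, rose from 19 and 18 to 82 and 161 fragments, 2.83 (SE 0.705, edgeR adjusted p = 6.82e-04), lost without replicate 2 of 6 h (between 1.85 and 3.41). In the same comparison COL10A1 fell from 15.7 and 23.4 to 9.52 and 8.55 CPM, -1.11 (SE 0.361, edgeR adjusted p = 0.0104), and COL23A1 rose by 1.43 (SE 0.551, edgeR adjusted p = 0.0328). COL10A1 was lost without replicate 2 of either time (between -1.37 and -0.79), and COL23A1 without either library of 0 h or replicate 2 of 6 h (between 1.08 and 1.72). ITGA10 in Kelly at 3 days went from 3 and 0 to 54 and 33 fragments, and COL12A1 in Kelly at 6 days from 0 and 0 to 43 and 20. ITGA10 was lost without each of the 4 libraries and COL12A1 without 3 of them, either of 0 h and replicate 1 of 6 h.

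Of the 43 collagens tested in Kelly, 10 rose at 3 days and 8 at 6 days, and 0 fell in either. Of all genes, 30.1% and 26.5% were called there. Of the 36 tested in NGP, 12 rose and 0 fell at 3 days, and 13 rose and 1 fell at 6 days. The shares of all genes called were 37.4% and 36.7%. COL1A1 rose by 1.36 (SE 0.331, edgeR adjusted p = 3.77e-04) in Kelly at 3 days, lost without replicate 1 of 6 h (between 0.94 and 1.68), and by 0.79 (SE 0.13, edgeR adjusted p = 4.38e-07) and 1.37 (SE 0.128, edgeR adjusted p = 3.13e-15) in NGP at 3 and 6 days, of which spike-in scaling turned that at 3 days to -0.016. COL6A2 rose by 1.1 (SE 0.106, edgeR adjusted p = 8.97e-15), COL5A1 by 1.30 (SE 0.184, edgeR adjusted p = 8.93e-09) and COL6A6 by 1.00 (SE 0.188, edgeR adjusted p = 6.91e-06) in NGP at 6 days. With spike-in scaling these were 0.045, 0.25 and -0.050, none of them called. In Kelly at 6 days LAMA1 rose by 0.79 (SE 0.0906, edgeR adjusted p = 4.92e-14) and COL4A2 by 0.72 (SE 0.0763, edgeR adjusted p = 4.84e-16), with -0.49 and -0.56 by spike-ins. FN1 rose in all 4 DMSO comparisons, between 0.43 and 0.58, while on the spike-in scale 105%, 55.8%, 85.8% and 67.7% of its 0 h level was left (changes of 0.067, -0.84, -0.22 and -0.56). In Kelly its call was lost without replicate 2 of 6 h at 3 days (between 0.21 and 0.75) and without replicate 2 of 0 h at 6 days (between 0.35 and 0.53).

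The effect of STM2457 on decay was read as the change over 6 h with STM2457 minus that with DMSO. A positive value means that the relative level moved further up, or less far down, with the inhibitor. In edgeR, 0 of 84 genes in Kelly at 3 days, 0 of 84 at 6 days and 0 of 71 in NGP at 3 days were called. At an unadjusted p under 0.05 there were 7, 5 and 2. DESeq2 called 0, 0 and 0. The shares of all genes called were 0.221%, 0.424% and 0.703%. In NGP at 6 days 1 gene was higher and 1 lower, against 2.54% of all genes. Spike-in scaling gave 5 higher and 0 lower there, with the median of all genes at 0.41, and 20 higher and 0 lower in Kelly at 6 days, with that median at 0.70. In Kelly at 3 days it gave 0 higher and 7 lower, with the median at -0.37, and in NGP at 3 days 0 and 0.

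The higher one was DDR2. In NGP at 6 days with DMSO it was at 578 and 546 CPM at 0 h, 648 and 651 at 3 h and 313 and 327 at 6 h. With STM2457 it was at 272 and 263 CPM at 0 h, 316 and 287 at 3 h and 305 and 332 at 6 h. So the 0 h libraries differed by treatment and the 6 h libraries did not separate. The decay difference was 1.06 (SE 0.095, edgeR adjusted p = 2.19e-14), and it was called without any 1 of the 8 libraries. At 6 h 56.9% of the 0 h level was left in DMSO and 119% with STM2457, or 27.4% and 77.1% on the spike-in scale. At 3 h the values were 116% and 113% on the typical-gene scale. Relative to the typical gene, the drop in DMSO came between 3 and 6 h. This scale does not show how much was lost by 3 h. The same contrast was -0.25 (SE 0.0947, edgeR adjusted p = 0.336) in NGP at 3 days and 0.08 (SE 0.113, edgeR adjusted p = 0.953) in Kelly at 6 days, neither called. DDR2 has higher levels in DMSO at 6 days than in any other NGP group at 0 h, as given above, and shares those DMSO libraries with the 6-day STM2457 change.

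Because METTL3 methylates adenosine mainly within a DRACH consensus, of which GGACT is the commonest form in DNA letters, these 5 bases were searched for in the canonical GENCODE transcript of DDR2 (release 44). It holds 9 sites in 10086 bases, 2 in coding sequence and 7 after it in exon 18 of 18. The 2 coding sites and the first of the others are shown with 10 bases on each side, 5′ to 3′, with GGACT in capitals.
DDR2 site 1: atggaaggctGGACTcagaagaagg
DDR2 site 2: ttttcctaaaGGACTtggagccgcc
DDR2 site 3: gagaatctgaGGACTcagaattcag
The capitals lie at chr1:162754627-162754631 in exon 5, chr1:162755197-162755201 in exon 6 and chr1:162780714-162780718 in exon 18, all on the plus strand of GRCh38. Per kilobase of transcript DDR2 has 0.892 such sites, beside a median of 1.21 over the 61 of the 86 genes expressed in a line and 0.924 over 13168 expressed genes. Whether any of these sites carried the mark was not measured here.

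The lower one was COL1A1. In NGP at 6 days with DMSO it was at 68.7 and 84.9 CPM at 0 h, 105 and 113 at 3 h and 199.8 and 197 at 6 h. With STM2457 it was at 50.4 and 46.3 CPM at 0 h, 71.5 and 64 at 3 h and 77.8 and 82.5 at 6 h. All 3 times were lower with STM2457, and the relative rise was smaller. The decay difference was -0.64 (SE 0.182, edgeR adjusted p = 0.0329). It was lost without replicate 1 of any of the 4 groups (between -0.80 and -0.50), and with spike-in scaling it was -0.22 and not called.

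**Figure D5:**
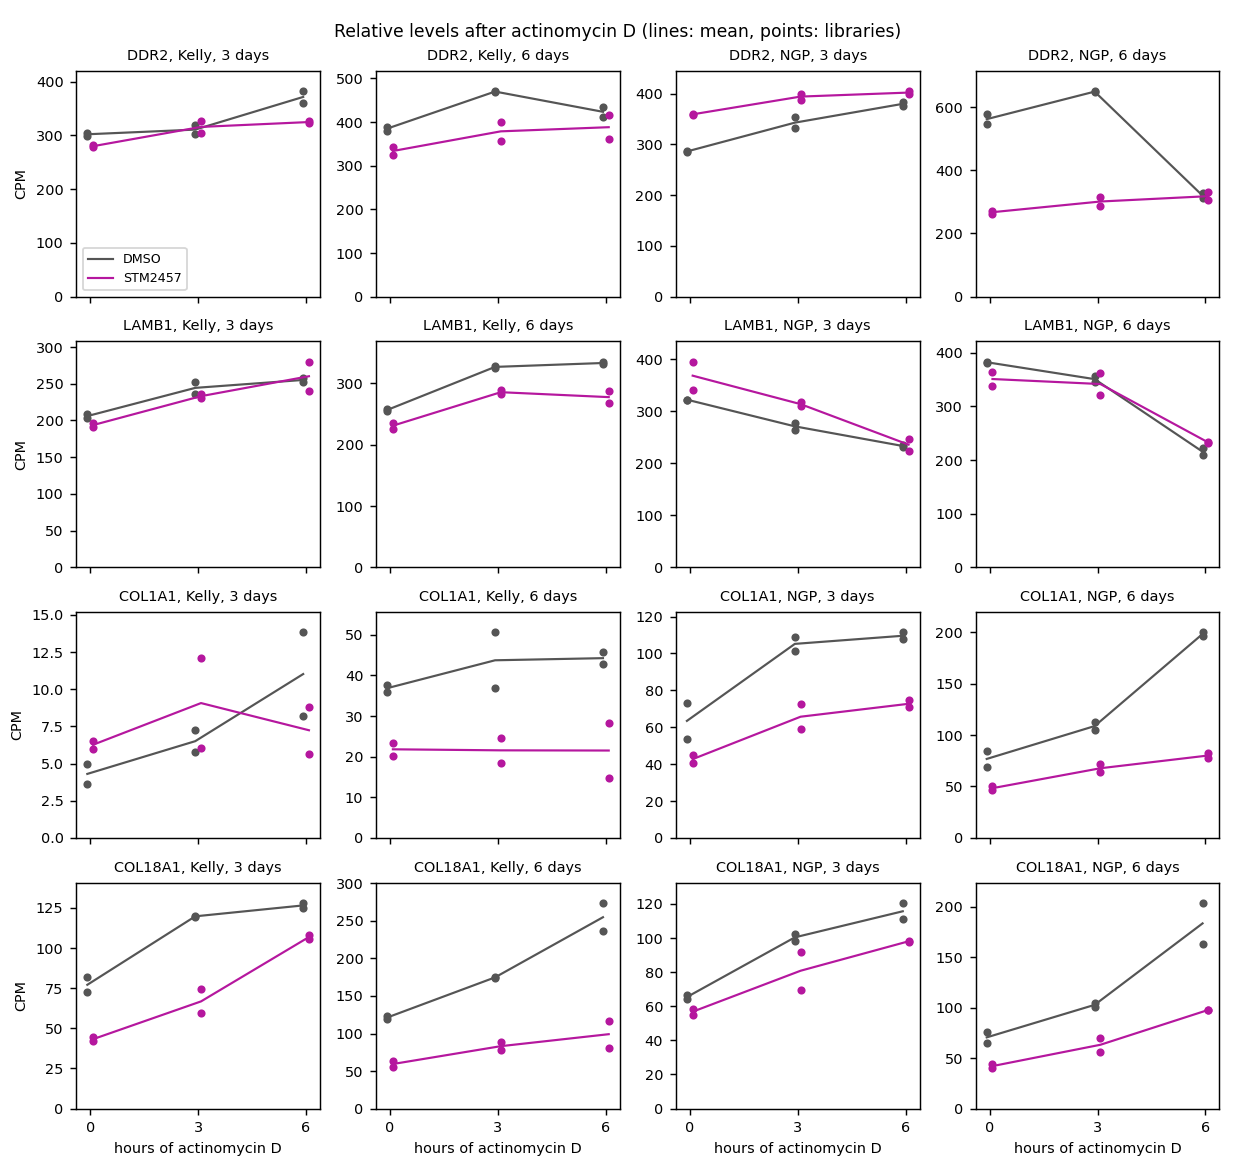
CPM of DDR2, LAMB1, COL1A1 and COL18A1 at 0, 3 and 6 h of actinomycin D (x axis, hours) in each library, for Kelly and NGP at 3 and 6 days, with lines through the group means for DMSO and STM2457. DDR2 in NGP at 6 days with DMSO drops between 3 and 6 h, and the CPM of LAMB1 declines in NGP and not in Kelly. With spike-in scaling the 6 h change of LAMB1 in Kelly with DMSO was -0.13 at 3 days and -0.90 at 6 days.

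Genes that modify, accompany or degrade these chains were taken from 4 lists: 30 for collagen processing, 25 for basement membrane and matrix partners, 29 for the adhesion machinery of integrins and 28 for matrix proteases and their inhibitors. The lists were tested in the same fits. With STM2457 at 6 days in Kelly, the numbers higher and lower were 1 and 1, 0 and 3, 2 and 0, and 2 and 0, in that order, of 30, 24, 29 and 22 tested and against 3.97% of all genes called. HSPG2, which encodes perlecan, fell by -0.96 (SE 0.15, edgeR adjusted p = 2.15e-07). AGRN (agrin) fell by -1.01 (SE 0.307, edgeR adjusted p = 0.0343), lost without DMSO replicate 1 or either STM2457 library (between -1.23 and -0.80), and FBLN2 (fibulin-2) by -0.88 (SE 0.238, edgeR adjusted p = 0.0104), lost without DMSO replicate 2 or either STM2457 library (between -1.04 and -0.76). At 3 days in Kelly the numbers were 0 and 0, 0 and 1, 1 and 0, and 0 and 1, against 1.68%. In NGP, with 29, 22, 29 and 21 tested, they were 2 and 0, 1 and 1, 0 and 1, and 0 and 1 at 3 days, against 3.7%, and 3 and 0, 3 and 2, 2 and 2, and 4 and 2 at 6 days, against 7.99%. VCAN (versican) rose in NGP, by 0.52 (SE 0.0691, edgeR adjusted p = 6.40e-08) at 3 days and 0.38 (SE 0.069, edgeR adjusted p = 2.10e-05) at 6 days. TIMP2, an inhibitor of matrix metalloproteinases, rose at 6 days in NGP by 0.72 (SE 0.112, edgeR adjusted p = 7.53e-07) and in Kelly by 0.41 (SE 0.128, edgeR adjusted p = 0.0383), lost in Kelly without each of the 4 libraries (between 0.34 and 0.44).

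Between 3 and 6 days of DMSO, 6 of the 24 partner genes tested rose in Kelly and 0 fell, beside 2 up and 4 down of 22 in NGP, where 8.52% and 12.1% of all genes were called. HSPG2 rose in both, by 1.34 (SE 0.152, edgeR adjusted p = 1.48e-13) and 0.64 (SE 0.126, edgeR adjusted p = 6.86e-05), and FBLN2 in Kelly by 1.55 (SE 0.244, edgeR adjusted p = 1.21e-07). Of the 29 adhesion genes, 1 rose and 5 fell in Kelly, and 0 rose and 6 fell in NGP. FLNA, the actin crosslinker filamin A, fell by -0.41 (SE 0.0665, edgeR adjusted p = 2.51e-07) in Kelly and -0.55 (SE 0.0635, edgeR adjusted p = 6.76e-11) in NGP. Collagen processing genes split 2 up and 2 down in Kelly and 2 up and 3 down in NGP, and proteases and inhibitors 1 and 1 and 3 and 3. TIMP2 fell in NGP by -1.05 (SE 0.112, edgeR adjusted p = 2.84e-12). HSPG2, FBLN2, FLNA and TIMP2 kept these duration calls without any 1 of the 4 libraries, as VCAN did its STM2457 calls and HSPG2 its call with STM2457 at 6 days.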

How the data were processed

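Poly(A) RNA from Kelly and NGP was sequenced in 48 libraries, after extraction in TRIzol, bead selection and a SMART cDNA kit, per the labels' protocols. Each deposited file lists fragment counts by gene name, neither normalized nor filtered; per the file headers, the authors counted paired-end fragments over exons using featureCounts 1.5.3, with an annotation of GENCODE release 33 protein-coding genes plus 92 ERCC spike-ins. No strand or multi-mapping option is named there. The submitters' processing notes list GRCh38 and the tools FastQC 0.11.5, Trimmomatic 0.36, Subread 1.5.3 and HISAT2 2.1.0. No alignment was repeated here.

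Groups come from the sample titles. Counts were tested with edgeR 4.0.16 (R 4.3.3, limma 3.58.1): TMM scaling, filterByExpr (minimum count 10, minimum total 15) and the quasi-likelihood F test over the 24 libraries of a line, or all 48 for differences between lines. P-values were adjusted over all genes tested (Benjamini-Hochberg, threshold 0.05), and SEs are the absolute log2 change over the square root of F. The filter kept 84 of the 86 genes in Kelly, 71 in NGP and 85 in the joint fit. CPM use TMM-scaled library sizes and exclude ERCC. The procedure was run on counts simulated with the spread that the fit itself estimates. Such a run checks the calculation, not whether the libraries follow the model. Alternatives were DESeq2 1.42.0, RLE scaling, library size alone, ERCC scaling, no filter, a replicate block and leaving out each library. Replicates of a group differed by more than sampling noise (chi-square per degree of freedom 6.73 to 20.45), so each counts as 1 library.

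The genes and lists were chosen with earlier results of these data known. Named with full values were all genes called where 10 or fewer were, otherwise the 10 of at least 1 CPM with the largest change, their chain partners and the 5 highest levels per line. Named outside this rule, after their values were seen, were LAMA5, LAMB1, COL6A3, FN1, COL4A1, COL4A2, ITGA1 and DDR2 in the duration comparisons. The same holds for COL6A1 and COL16A1 with STM2457 in NGP, and for LAMB1, LAMC1, ITGB8, DDR2, FN1 and COL12A1 after actinomycin D. Between the lines it holds for LAMA1, LAMA3, LAMA4, LAMA5, LAMB1, LAMB2, COL1A1 and ITGB5. Some genes that the rule picks after actinomycin D, such as COL22A1 and COL5A2, are not printed with full values.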

Additional observations from a re-analysis of the deposited data

Results flagged for a closer look

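For 9 genes the STM2457 effect at 0 h differed between durations or lines by edgeR's interaction test at an adjusted p under 0.05, in 12 contrasts. All are log2 differences. Between 6 and 3 days they were 0.70 for ITGB5 in Kelly, and in NGP 0.53 for COL16A1, -1.40 for DDR2, -1.61 for COL6A3, -0.93 for COL5A1 and -0.64 for COL6A1. Between NGP and Kelly the difference was 0.44 for DDR2 at 3 days. At 6 days it was 1.72 for COL16A1, -0.85 for DDR2, 5.78 for ITGA6, -1.05 for ITGA9 and -0.90 for LAMA5. DDR2 (except between lines at 3 days), COL6A1 and LAMA5 kept the call without any 1 library. Their other values and the libraries each of the rest depends on stand in the report.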

How the results depend on the processing

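Groups of 2 libraries give rough errors, and a gene near the filter can be called on a few fragments. The count of genes called was within 1.5 times its main value in 20 of 21 comparisons with DESeq2, without the filter and with the replicate block, in 21 with RLE scaling, in 19 with library size alone and in 11 with ERCC scaling. The exception with DESeq2, no filter and the block was the line difference in the STM2457 effect at 3 days, with 2, 4 and 2 genes in place of 1. ERCC scaling gave 3 there, 15 for STM2457 in Kelly at 3 days, 25 for 6 against 3 days of DMSO in Kelly, and 18 for the difference of the STM2457 effect between durations in Kelly. For actinomycin D it gave 4 and 31 in Kelly at 3 and 6 days and 11 in NGP at 3 days, where library size alone gave 10 and 11 in Kelly. For the decay difference it gave 7 (all lower) and 20 (all higher) in Kelly at 3 and 6 days and 5 (all higher) in NGP at 6 days. The cause was not tested.

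Leaving out 1 library gave 4 to 5 genes for STM2457 in Kelly at 6 days, 3 to 6 in NGP at 3 days and 7 to 10 at 6 days. It gave 4 to 9 for 6 against 3 days of STM2457 in Kelly and 6 to 11 in NGP, 0 to 2 and 2 to 5 for the difference between durations in Kelly and NGP, 0 to 1 and 3 to 4 for that between lines at 3 and 6 days, and 1 to 2 for the decay difference in NGP at 6 days.

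Of the genes named by the rule, ERCC scaling reversed 23 changes, all of 6 h of actinomycin D in DMSO. The report gives the values of FN1, LAMC1 and DDR2, named outside it, and the number of all called genes that took the other sign. In Kelly at 3 days these were LAMB1 (-0.13) and LAMC1 (-0.066). At 6 days they were COL18A1 (-0.20), COL4A1 (-0.72), COL4A2 (-0.56), COL6A1 (-0.69), COL6A2 (-0.64), COL6A3 (-0.68), COL6A6 (-0.42), LAMA1 (-0.49), LAMA5 (-0.57), LAMB1 (-0.90), LAMB2 (-0.60) and LAMC1 (-0.97). In NGP at 3 days they were COL1A1 (-0.016), COL4A1 (-0.25), COL4A2 (-0.023), COL6A3 (-0.0040), COL6A6 (-0.078), COL9A2 (-0.051) and ITGB1 (-0.062), and at 6 days COL6A6 (-0.050) and ITGB1 (-0.39).

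Deviations of same-numbered libraries from their group means had correlations of -0.0501 to 0.0606 in Kelly and -0.0423 to 0.157 in NGP. Of 66 pairs of groups in each line, 0 in Kelly and 3 in NGP were above 0.1. Low correlations do not show that same-numbered libraries were prepared separately. The replicate block moved 1 count, from 1 to 2 genes, and ended 1 named call, the line difference of COL28A1 (2.33).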
